A study of Mus musculus with 4 samples.

Results

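Plasminogen activators, the receptor and serpin that act on them, and the tissue inhibitors of metalloproteinases (TIMPs) were examined in the hippocampus after global cerebral ischemia (GCI). The group comprised 9 genes, Plat, Plau, Plaur, Serpine2, Mmp14, Timp1, Timp2, Timp3 and Timp4, out of 22609 gene symbols counted. The genes were chosen by name, with their values in FBN-ARO-KO+GCI against FLOX+GCI already known, so their values in that comparison are a description, and no p or call is given for them. RNA-Seq was done on 4 hippocampus libraries, 2 of each genotype, from ovariectomized female mice aged 3 to 5 months. Every mouse was ovariectomized 1 week before both common carotid arteries were occluded for 20 min, and the tissue was taken after 24 h of reperfusion. FBN-ARO-KO mice carry a floxed Cyp19a1 gene, which encodes aromatase, deleted by Cre under the CaMKIIα promoter in excitatory forebrain neurons. The FLOX mice are their controls, and aromatase outside these neurons is not targeted. No sham library was analysed here, so every level is one measured after ischemia. The labels do not say whether the libraries of a group came from separate mice, so p-values measure only the spread between these libraries, which may be technical.

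Plasminogen activators are serine proteases that cut plasminogen to plasmin, which degrades fibrin and matrix proteins. Plat encodes the tissue type (tPA), which neurons also release at synapses, and Plau the urokinase type (uPA), which binds the receptor encoded by Plaur. Serpins such as protease nexin-1, the product of Serpine2, trap these proteases, and TIMPs block metalloproteinases, among them the membrane-anchored Mmp14, which activates pro-MMP2 together with TIMP-2.

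The counts assigned to genes ranged from 24333396 to 33076795 per library, and 3 counts correspond to between 0.0907 and 0.123 CPM (counts per 1000000 gene counts of the library). Cyp19a1 had between 1 and 4 counts in every library, too few to check the deletion. The sum over 12 pan-reactive astrocyte transcripts was highest in FLOX+GCI replicate 2, at 1509 CPM against 751 to 893 CPM in the other 3 libraries. Singly, Lcn2, Hspb1 and Cp were not highest there. Markers of leptomeningeal fibroblasts ranged from 120.1 CPM in FBN-ARO-KO+GCI replicate 2 to 379 CPM in FLOX+GCI replicate 1, summed over 8 genes. Mural cell markers ranged in the same order, from 128 to 309 CPM over 7 genes. Astrocyte, microglia, oligodendrocyte and excitatory neuron marker sums differed by at most 1.18-fold between libraries. Single markers of these lists differed more, such as the astrocyte marker Gfap by 2.27-fold and the microglia marker P2ry12 by 2.16-fold. All 6 excitatory neuron and 8 hippocampal field markers were expressed in each library, as the tissue label says. In whole hippocampus, fewer cells of a type and less RNA per cell cannot be told apart.

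Of the 9 genes, Timp1 and Plaur varied most between libraries, and Timp2 varied least. The RefSeq promoter windows of these 3 genes (GRCm38.p6, a later build than the mm9 of the counts, from 250 bases before to 50 bases after the start of the gene) are shown because their levels contrast. Each is written 5′ to 3′ on the strand of the gene. Timp1 lies at chrX:20869916-20870215 on the plus strand, Plaur at chr7:24462233-24462532 on the plus strand and Timp2 at chr11:118355362-118355661 on the minus strand. Capitals mark matches, on either strand, to the letters searched.
Timp1: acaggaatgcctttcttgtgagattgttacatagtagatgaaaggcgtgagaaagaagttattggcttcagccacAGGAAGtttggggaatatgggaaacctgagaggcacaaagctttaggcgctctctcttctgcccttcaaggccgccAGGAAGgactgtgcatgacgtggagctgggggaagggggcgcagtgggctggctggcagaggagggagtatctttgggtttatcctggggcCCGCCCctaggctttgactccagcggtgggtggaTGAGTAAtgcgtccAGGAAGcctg
Plaur: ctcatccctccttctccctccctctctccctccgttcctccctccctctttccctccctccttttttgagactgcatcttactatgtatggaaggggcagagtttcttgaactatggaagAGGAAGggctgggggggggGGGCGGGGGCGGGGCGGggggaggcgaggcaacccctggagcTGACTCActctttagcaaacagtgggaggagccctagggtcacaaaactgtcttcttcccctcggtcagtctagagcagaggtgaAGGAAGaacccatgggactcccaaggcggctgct
Timp2: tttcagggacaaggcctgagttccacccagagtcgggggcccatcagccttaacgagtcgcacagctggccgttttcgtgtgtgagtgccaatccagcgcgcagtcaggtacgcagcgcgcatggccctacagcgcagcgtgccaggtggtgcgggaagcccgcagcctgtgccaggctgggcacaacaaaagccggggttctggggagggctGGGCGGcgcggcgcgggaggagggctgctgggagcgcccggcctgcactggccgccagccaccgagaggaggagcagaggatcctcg

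The letters searched were TGANTCA (AP-1), TTCNNNGAA (STAT), GGGCGG (Sp1), AGGAAG (Ets factors of the PEA3 type) and, added after the windows were seen, the AP-1 variant TGAGTAA. Windows were given for 7 of the 9 genes, the others being Plat and Plau. The Plaur window held TGACTCA, which starts 69 bases before the start of the gene, and it was the only one of the 7 with a match to TGANTCA, which 7.81% of all 32851 windows held. The Timp1 window held no TGANTCA but held TGAGTAA from position 27 after the start, a run of letters found in 2.68% of all windows. Matches to AGGAAG numbered 3 in the Timp1 window and 2 in the Plaur window, and 6 of the 7 windows had at least 1, all but that of Timp2, against 35.4% of all windows. GGGCGG was in 6 of the 7 windows, all but that of Timp4, against 35.7% of all windows, and 2 of the 3 matches in the Plaur window share a base. No window of the 7 held TTCNNNGAA, which 8.30% of all windows held. Such matches are letters in a sequence and were not tested for binding.

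In the mm9 genome, to which the authors aligned the reads, 3 of the 4 TIMP genes lie inside a synapsin gene on the opposite strand. Timp1, on chromosome X from 20447292 to 20451861, lies within Syn1 and shares no exon base with it. Timp4, on chromosome 6 from 115195634 to 115201867, lies within Syn2, also with no shared exon base. Timp3, on chromosome 10 from 85763117 to 85812251, lies within Syn3, and 1733 of its exon bases are also annotated as Syn3 exon. Whether counting used the strand is not given in the sources used here, so reads from that stretch cannot be assigned to Timp3 or Syn3 with certainty. Timp2, on chromosome 11 from 118162383 to 118217054, has no synapsin host. Of the other genes, Plat lies on chromosome 8 (23868216 to 23893319), Plaur on chromosome 7 (25247519 to 25260892) and Serpine2 on chromosome 1 (79790772 to 79855271, minus strand). Plau and Mmp14 are both on chromosome 14, at 21655884 to 21662610 and 55050441 to 55060095. The host genes varied little, since Syn1 ranged from 565 to 648 CPM, Syn2 from 959.6 to 1064 CPM and Syn3 from 38.5 to 42.7 CPM. Timp1 differed 41.3-fold between the FLOX+GCI libraries, as described next, while Syn1 was at 648 CPM in replicate 1 and 614 CPM in replicate 2.

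Timp1, which encodes the injury-inducible TIMP-1, was nearly absent in 3 of the 4 libraries. Replicates 1 and 2 of FLOX+GCI held 5 and 203 counts, and those of FBN-ARO-KO+GCI held 5 and 4. After scaling by TMM (edgeR's trimmed mean of M values), this was 0.200 and 8.24 CPM in FLOX+GCI and 0.151 and 0.137 CPM in FBN-ARO-KO+GCI. FLOX+GCI replicate 2 alone was high, and replicate 1 of that group was next to the FBN-ARO-KO+GCI libraries. As a share of each library total, the exact 95% binomial interval was 7.23 to 9.57 CPM in FLOX+GCI replicate 2 and 0.0655 to 0.471 CPM in replicate 1, which overlaps the intervals of both FBN-ARO-KO+GCI libraries (0.0491 to 0.353 and 0.0362 to 0.340 CPM). These intervals cover counting error only. Timp1 was below the filter on low counts. When every gene seen at least once was fitted, its log2 fold change was -4.82 (standard error 1.36), and without FLOX+GCI replicate 2 it was -0.46. FLOX+GCI averaged 4.22 ± 5.68 CPM, an SD larger than the mean, and FBN-ARO-KO+GCI averaged 0.144 ± 0.0101 CPM (SD, n = 2 each).

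Plaur, for the uPA receptor, had the same high library at a smaller size. FLOX+GCI libraries held 11 and 38 counts of it and knockout libraries 12 and 10, or 0.439 and 1.54 CPM against 0.362 and 0.341 CPM. The groups did not overlap, but FLOX+GCI replicate 1 exceeded the nearest FBN-ARO-KO+GCI library by less than counting error, since its exact binomial interval of 0.222 to 0.794 CPM contains both FBN-ARO-KO+GCI values. The log2 fold change was -1.48 (standard error 0.63), and -0.32 without FLOX+GCI replicate 2. Plau, for uPA, was counted 49 and 72 times in FLOX+GCI and 52 and 60 times in the knockout. On the CPM scale these were 1.96 and 2.92 against 1.57 and 2.05, so the groups overlapped, and FLOX+GCI replicate 2 was again the highest library. Its exact binomial interval, 2.32 to 3.73 CPM of the library total, overlaps those of other libraries. These were 1.46 to 2.61 CPM in FLOX+GCI replicate 1 and 1.52 to 2.56 CPM in FBN-ARO-KO+GCI replicate 2. The log2 fold change of Plau was -0.43 (standard error 0.30), and -0.12 without FLOX+GCI replicate 2. The ligand and its receptor had the same highest library by value, but for Plau this was not resolved from counting error. The level of Plau over that of Plaur, per length, was 1.13 in FLOX+GCI replicate 2 and from 2.58 to 3.57 in the other 3 libraries. In those 3 libraries the ratios rest on only 10 to 12 counts of Plaur.

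**Figure D1:**
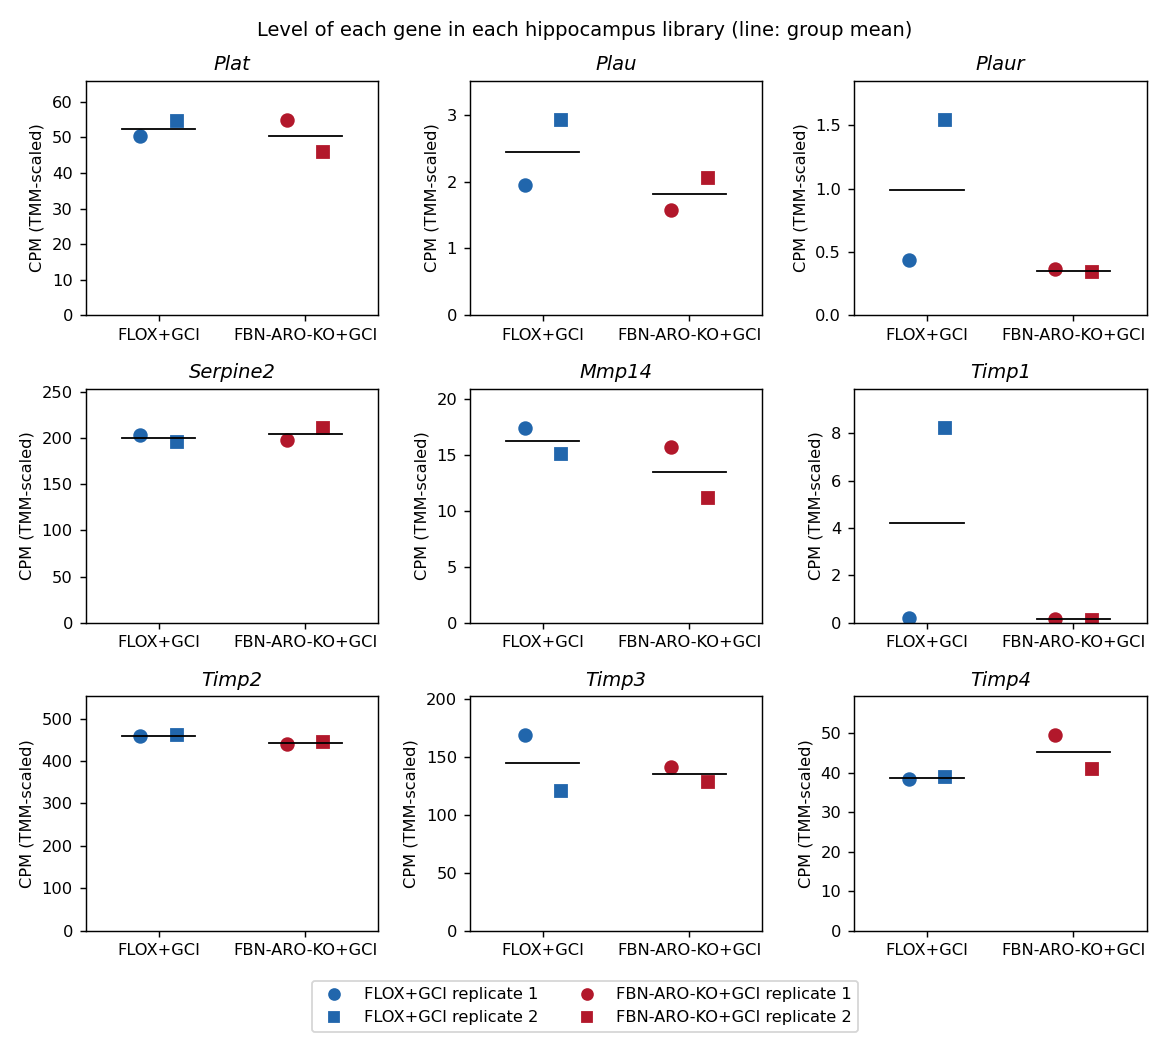
Level of each of the 9 genes (TMM-scaled CPM, linear axes from 0) in the 4 hippocampus libraries, with blue for FLOX+GCI, red for FBN-ARO-KO+GCI, circles for replicate 1, squares for replicate 2 and a line at each group mean. Timp1 at 8.24 CPM and Plaur at 1.54 CPM stand apart in FLOX+GCI replicate 2, while Timp2 lies between 441 and 460.3 CPM in every library.

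Plat and Serpine2 were at steady levels. Plat, for tPA, was counted 1260 and 1344 times in FLOX+GCI and 1819 and 1343 times in the knockout. Scaled to library size, Plat was at 50.3 and 54.5 CPM against 54.9 and 45.8 CPM, and both the highest and the lowest library were FBN-ARO-KO+GCI. The difference of -0.06 on the log2 scale (standard error 0.11) lay between -0.20 and 0.07 with 1 library left out. Serpine2 was counted 5105 and 4819 times in FLOX+GCI and 6574 and 6185 times in the knockout, or 204 and 195 CPM against 198 and 211 CPM. The groups overlapped, the highest library exceeded the lowest by 1.08-fold, and the log2 fold change was 0.04 (standard error 0.07). Per length, Serpine2 exceeded Plat by 2.37-fold to 3.04-fold in the 4 libraries, or by 3.92-fold to 5.04-fold with the longest transcript in place of all exons. The highest and the lowest of these ratios were in FBN-ARO-KO+GCI replicate 2 and FLOX+GCI replicate 2. Plat exceeded Plau by 17.3-fold to 32.4-fold per length, so tPA was the more abundant activator transcript in every library.

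Timp2, for TIMP-2, was the steadiest of the 9 genes. It was counted 11494 and 11347 times in FLOX+GCI and 14602 and 13059 times in the knockout, or 459 and 460.3 CPM against 441 and 446 CPM. The groups did not overlap, at a difference of 459.5 ± 1.15 against 443 ± 3.75 CPM (SD, n = 2 each). On the log2 scale this was -0.05 (standard error 0.07), and the groups overlapped once the effect of GC content and transcript length was fitted out of every library (log2 fold change -0.01). Timp3, for the TIMP that binds to the matrix, was counted 4229 and 2976 times in FLOX+GCI and 4692 and 3766 times in the knockout. Its CPM values of 169 and 121 in FLOX+GCI enclosed those of 142 and 129 in FBN-ARO-KO+GCI. The log2 fold change was -0.10 (standard error 0.15), but 0.16 without FLOX+GCI replicate 1 and -0.32 without FLOX+GCI replicate 2. Timp4, for the TIMP of most restricted tissue range, was counted 961 and 960 times in FLOX+GCI and 1638 and 1201 times in the knockout. It was the one TIMP with higher values in FBN-ARO-KO+GCI, at 49.4 and 41.0 CPM against 38.4 and 38.9 CPM, and the groups did not overlap. The log2 fold change of Timp4 was 0.23 (standard error 0.11), but 0.08 without FBN-ARO-KO+GCI replicate 1, a smaller difference than the spread within FBN-ARO-KO+GCI (45.2 ± 5.95 CPM, SD, n = 2).

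Mmp14, for the membrane-type protease MT1-MMP, was counted 436 and 372 times in FLOX+GCI and 521 and 327 times in the knockout. Its levels were 17.4 and 15.1 CPM in FLOX+GCI and 15.7 and 11.2 CPM in FBN-ARO-KO+GCI, so the groups overlapped. Its log2 fold change was -0.27 (standard error 0.18), -0.54 without FBN-ARO-KO+GCI replicate 1 and -0.05 without FBN-ARO-KO+GCI replicate 2. The order of the libraries was that of the leptomeningeal fibroblast markers, whose 8 genes summed to 379 and 192 CPM in FLOX+GCI replicates 1 and 2 and to 226 and 120.1 CPM in FBN-ARO-KO+GCI replicates 1 and 2. It was also that of the mural markers, at 309 and 196 against 240 and 128 CPM, and of the endothelial markers, at 256 and 176 against 210.2 and 152 CPM. Singly, 6 of the 8 fibroblast, 4 of the 7 mural and 5 of the 7 endothelial markers had this order, against 4.71% of all tested genes. For Mmp14 the middle of the order rests on 15.7 CPM in FBN-ARO-KO+GCI replicate 1 against 15.1 CPM in FLOX+GCI replicate 2. This small gap was not set against counting error. No marker of the fibroblast and mural lists was at 0 in a library, and their part in the values of Mmp14 was not tested.

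**Figure D2:**
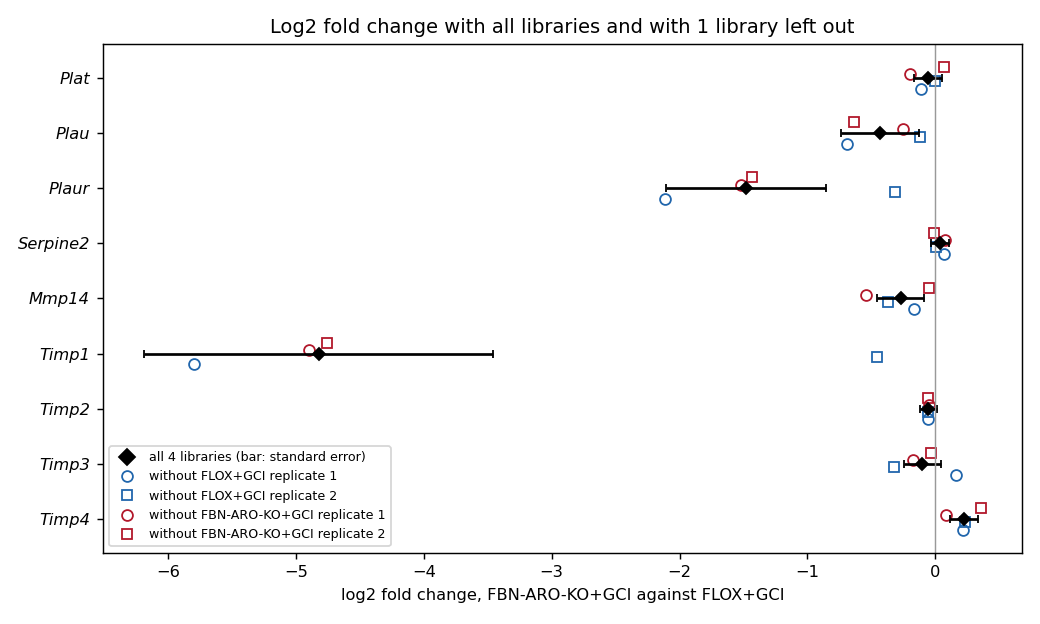
Log2 fold change of each gene in FBN-ARO-KO+GCI against FLOX+GCI with all 4 libraries (black, bar for the standard error) and with 1 library left out (open symbols, named in the key). Leaving out FLOX+GCI replicate 2 moves Timp1 from -4.82 to -0.46 and Plaur from -1.48 to -0.32, while Timp2 lies between -0.06 and -0.05 whichever library is left out.

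Over all 14527 genes that passed the filter on low counts, 2 were called at an adjusted p under 0.05 by edgeR's quasi-likelihood test, which is 0.0138% of them. Of the 9 genes, 8 passed this filter, all but Timp1. Libraries were separated by genotype for 4 of the 9 genes, with Timp1, Plaur and Timp2 lower and Timp4 higher in FBN-ARO-KO+GCI. Over all tested genes 25.8% were lower and 25.9% higher without overlap, and since these values were known when the genes were chosen, nothing is read from the count. The median log2 fold change of the 9 genes was -0.10, with 7 negative and 2 positive values, against -0.01 over all genes tested.

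The levels of the 9 genes were compared per length, as CPM divided by the kilobases of all annotated exons. Timp2 was the highest in every library, at 113 to 118 CPM per kb, followed by Serpine2 at 51.0 to 55.1 and Timp4 at 27.1 to 34.9. Plat at 18.1 to 21.7 CPM per kb and Timp3 at 14.8 to 20.7 overlapped, so their order was not resolved, and the mean of Timp3 was 17.2 CPM per kb but 29.6 with the longest transcript as the length, next to Timp4. Mmp14 followed at 4.30 to 6.70 CPM per kb. Plau at 0.670 to 1.25 and Plaur at 0.245 to 1.10 CPM per kb overlapped. Timp1 spanned nearly the whole lower part of this order, from 0.154 CPM per kb, the lowest level of any of the 9 genes, to 9.27 in FLOX+GCI replicate 2, where it exceeded Mmp14.

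**Figure D3:**
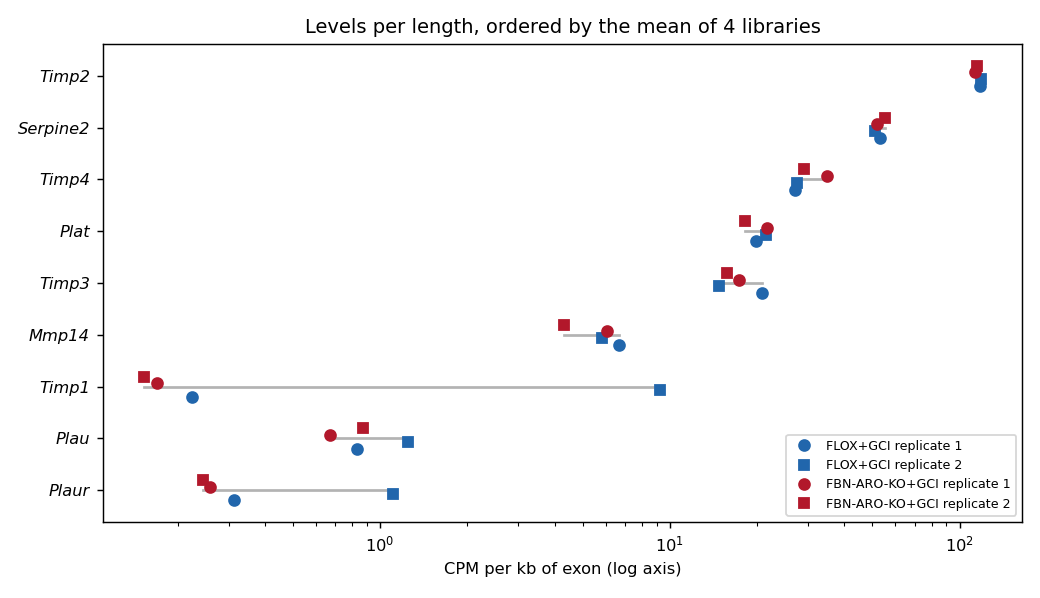
Level per length of the 9 genes (CPM per kb of annotated exon, log axis), ordered by the mean of the 4 libraries, with gray lines from the lowest to the highest library. The order from Timp2 down to Mmp14 spans 118 to 4.30 CPM per kb, and Timp1 alone crosses several other genes, from 0.154 to 9.27.

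The summed transcript level of the TIMPs was nearly constant although Timp1 was not, and TIMP protein was not measured. Summed per length, the 4 TIMPs gave 166 and 169.8 CPM per kb in FLOX+GCI against 166 and 159 in the knockout. Timp2 made up 68.3% to 71.8% of this sum, Timp4 16.2% to 21.1% and Timp3 8.73% to 12.5%. With the longest transcript as the length, Timp3 made up 13.7% to 19.1%, which overlaps the 14.5% to 19.0% of Timp4. Timp1 made up 5.46% in FLOX+GCI replicate 2 and from 0.0965% to 0.136% in the other libraries. The summed TIMP level exceeded that of Mmp14 by 24.7-fold and 29.2-fold in FLOX+GCI and by 27.3-fold and 37.1-fold in FBN-ARO-KO+GCI, so these ratios overlapped between genotypes. Such ratios are taken within a library and do not depend on the scaling between libraries, but they do depend on the length used.

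The size of the step of Timp1 between the FLOX+GCI libraries was set against the 14527 genes that passed the filter on low counts. With 0.5 CPM added to each value, replicate 2 exceeded replicate 1 by 3.64 on the log2 scale for Timp1, and 0 of the tested genes had a larger step. Timp1 is itself not among them, and this filter also removes other genes that reach its minimum count in only 1 library. The count of 0 therefore does not rank Timp1 among all genes. The step was 1.12 for Plaur, which 42 genes exceeded. For the remaining 7 genes it lay between -0.48 and 0.48. Steps over 2-fold in this direction occurred in 69 genes or 0.475% of those tested, and 90 genes were over 2-fold lower. Between the FBN-ARO-KO+GCI libraries, 12 genes were over 2-fold higher and 85 over 2-fold lower in replicate 2, and neither Timp1 nor Plaur was among these, at ratios of replicate 2 to replicate 1 of 0.905 and 0.943.

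Genes with a pattern like that of Timp1 were ranked by the distance between their log2 CPM values over the 4 libraries, centered on each gene's mean, among 14272 genes with at least 50 counts in all. The 5 nearest were Tgm1, Ccl12, Ptx3, Ifi202b and Lif, at distances of 0.641 to 1.10 on the log2 scale. Tgm1, for transglutaminase 1, was counted 1 and 75 times in FLOX+GCI and 1 and 2 times in the knockout. The chemokine gene Ccl12 had 5 and 114 against 6 and 4 counts, and the cytokine gene Lif had 40 and 521 against 35 and 39. In each of the 5 genes FLOX+GCI replicate 2 was the high library. The 5 genes nearest to Plaur were Gpr84, Il11, Pcdhgb8, Gldn and Tlr2, at distances of 0.198 to 0.338. Reads of Pcdhgb8 can be shared with the other gamma protocadherins, so its counts are uncertain. Tlr2, for a Toll-like receptor, was counted 41 and 97 times in FLOX+GCI and 44 and 36 times in the knockout. With 4 libraries, of which 1 is high, these ranks mainly order genes by the height of that library. The study screened astrocyte gene profiles and showed 12 pan-reactive transcripts other than Timp1 as altered in these samples, so they are not independent of them. Replicate 2 of FLOX+GCI exceeded replicate 1 for 10 of the 12, all but Hspb1 and Cp. Cd44 had the largest ratio, at 4.71 and 21.5 CPM there against 3.92 and 4.95 CPM in FBN-ARO-KO+GCI. Without overlap, 5 of the 12 were lower and 1 higher in FBN-ARO-KO+GCI, where 25.8% and 25.9% of all tested genes were. The higher one was Lcn2, at 2.35 and 4.95 CPM in FLOX+GCI against 8.18 and 5.63 CPM. The part of these transcripts in the level of Timp1 was not tested.

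**Figure D4:**
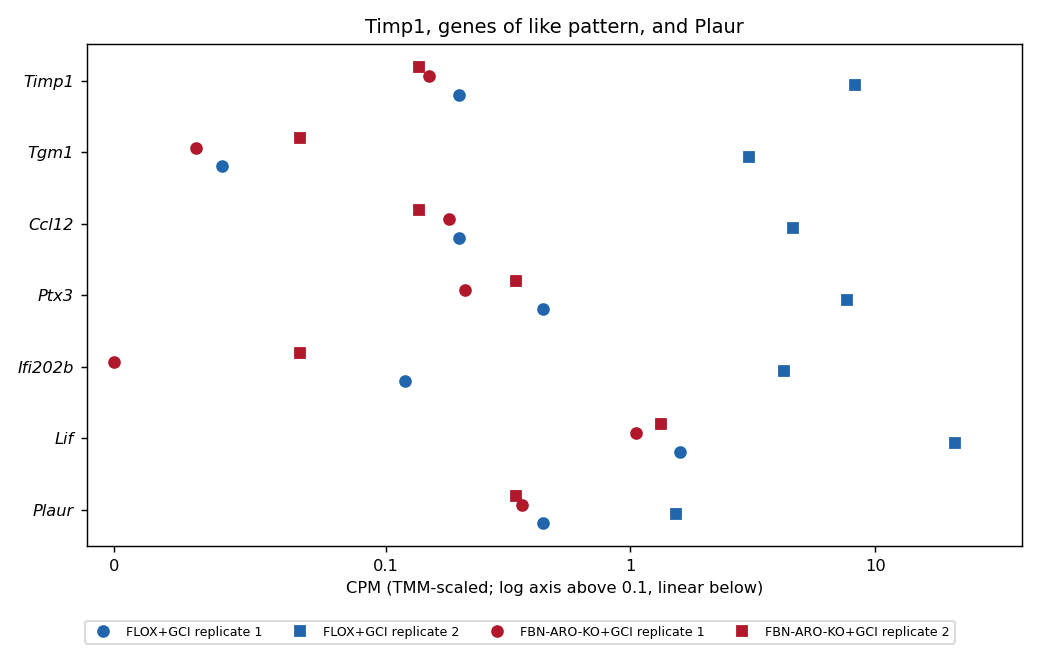
Level (TMM-scaled CPM, log axis above 0.1 and linear below) of Timp1, the 5 genes of nearest pattern and Plaur in the 4 libraries. In each of the 7 genes FLOX+GCI replicate 2 is the highest library, at 1.54 CPM for Plaur and 21.1 CPM for Lif.

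Other genes of the plasminogen system and its neighbors in coagulation were examined for how widely such differences extended. Of 30 listed genes, 29 were in the files and 21 passed the filter, of which 18 had a negative and 3 a positive log2 fold change, with a median of -0.43 against -0.01 over all genes. Once GC content and length were fitted, the median was -0.38, again with 18 negative and 3 positive values, against -0.00314 over all genes. In the quasi-likelihood fit 0 of the 21 passed an adjusted p of 0.05, and DESeq2, which gave an adjusted p for 6 of them, called 0. At an unadjusted p under 0.05 there were 5 lower and 1 higher, where 7.82% of all tested genes were lower and 8.72% higher. Of the 21, 5 (Serpind1, Serping1, Vtn, Tfpi and Thbd, named after their values were seen) had the library order of the fibroblast, mural and endothelial marker sums, FLOX+GCI replicate 1 above FBN-ARO-KO+GCI replicate 1, then FLOX+GCI replicate 2 and FBN-ARO-KO+GCI replicate 2. This order was found in 4.71% of all tested genes. Serping1, for the C1 inhibitor, was at 18.4 and 11.0 CPM in FLOX+GCI against 13.6 and 5.77 CPM, and Vtn is itself 1 of the 7 mural markers. The part of these cells in the median of the list was not tested. Plg, for plasminogen itself, was counted 0 and 2 times in FLOX+GCI and 0 times in both knockout libraries. Its transcript was thus below the limit of 3 counts in every library, and plasminogen protein, the substrate of the activators, was not measured.

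Serpinf2, for the plasmin inhibitor alpha-2-antiplasmin, had 0.918 and 5.07 CPM in FLOX+GCI against 0.724 and 0.785 CPM, with the same high library as Timp1 and a log2 fold change of -1.98 (standard error 0.71), or -0.29 without it. Neuroserpin, encoded by Serpini1, is the inhibitor of tPA made by neurons. It was at 276 and 251 CPM in FLOX+GCI and 285 and 362 CPM in the knockout, where the log2 fold change of 0.30 (standard error 0.12) became -0.01 once GC content and length were fitted. Serpinf2 and Serpini1 are named because they complete the 6 genes at an unadjusted p under 0.05, and were chosen after their values were seen.

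Lrp1, for the receptor that clears protease and serpin complexes, was at 376 and 401 CPM in FLOX+GCI and 339.5 and 315 CPM in the knockout. Its log2 fold change was -0.25 (standard error 0.08), and -0.11 once GC content and length were fitted. Anxa2, for an annexin that binds plasminogen and tPA at the cell surface, was at 20.1 and 21.0 CPM against 15.4 and 8.50 CPM (log2 fold change -0.77, standard error 0.25). F2rl1, for a protease-activated receptor, had only 15 and 10 counts against 6 and 3, and its log2 fold change was -1.78 (standard error 0.60). Mrc2, for a collagen receptor that binds the uPA receptor, was at 12.7 and 7.30 CPM against 6.52 and 3.69 CPM, with a log2 fold change of -0.97 (standard error 0.33). For these 4 genes the groups did not overlap, and adjusted p values of the edgeR quasi-likelihood fit lay between 0.245 and 0.250. They are the 4 genes of the list with the smallest unadjusted p, so nothing is read from their separation. Of the 21 genes tested in the list, 8 were lower and 1 higher without overlap, where 25.8% of all tested genes were lower and 25.9% higher. The order of the libraries for Mrc2 differed from that of the fibroblast markers only in the middle, and FLOX+GCI replicate 1 was the highest and FBN-ARO-KO+GCI replicate 2 the lowest for both, a relation that was not tested. Without FBN-ARO-KO+GCI replicate 2 the log2 fold change of Mrc2 was -0.62 and that of Anxa2 -0.41, and without FBN-ARO-KO+GCI replicate 1 that of Anxa2 was -1.27. Without FLOX+GCI replicate 1 that of Mrc2 was -0.51.

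Of 21 other matrix metalloproteinases, the enzymes that the TIMPs inhibit, 11 were below the filter and 5 had 0 counts in every library. The median over the 10 that passed was -0.15 on the log2 scale, with 8 negative and 2 positive, but -0.02 with 5 negative and 5 positive once GC content and length were fitted. Called genes numbered 0 in the quasi-likelihood fit and 0 of the 2 that DESeq2 adjusted, and 1, Mmp19, had an unadjusted p under 0.05. Mmp19 was at 1.64 and 1.14 CPM in FLOX+GCI and 0.784 and 0.478 CPM in the knockout (log2 fold change -1.12, standard error 0.40). The membrane-anchored Mmp17 was at 312 CPM in both FLOX+GCI libraries and at 306 and 265 CPM in the knockout, where the log2 fold change of -0.13 (standard error 0.08) became 0.06 once GC content and length were fitted. The log2 fold change of Mmp15 was -0.26 (standard error 0.12), or -0.06 in that fit, and that of Mmp11 was -0.50 (standard error 0.27), or -0.36. The gelatinase genes Mmp2 and Mmp9, named here for their place in ischemic injury and after their values were seen, were low and overlapped between groups, at 37 to 70 and 28 to 63 counts.

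All 17 ADAM and ADAMTS proteases and regulators listed passed the filter, 10 with negative and 7 with positive values around a median of -0.11 on the log2 scale, or -0.03 once GC content and length were fitted. The quasi-likelihood fit called 0 of them, DESeq2 called 0 of the 4 it adjusted, and 2 had an unadjusted p under 0.05. Adam10, for a sheddase of membrane proteins, was at 105 and 93.0 CPM in FLOX+GCI against 109 and 129 CPM (log2 fold change 0.27, standard error 0.10), which was 0.07 in that fit and 0.14 without FBN-ARO-KO+GCI replicate 2. Bsg, for basigin, an inducer of metalloproteinases, was at 465 and 427 CPM against 394 and 381 CPM, and its log2 fold change of -0.20 (standard error 0.07) became 0.01 there. The log2 fold change of Adamts8 was -0.42 (standard error 0.19), or -0.29 in that fit. That of Adam15 was -0.29 (standard error 0.13), or -0.15 in that fit, -0.09 without FBN-ARO-KO+GCI replicate 2 and -0.52 without FBN-ARO-KO+GCI replicate 1.

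**Figure D5:**
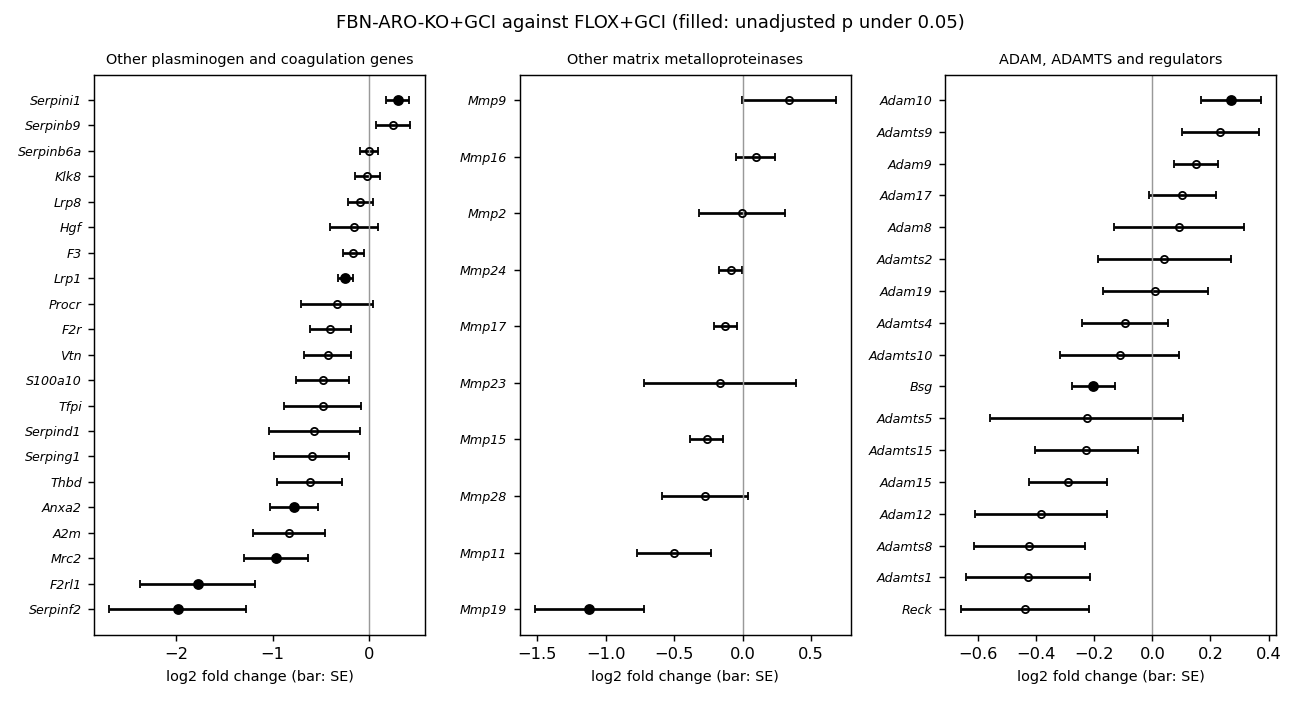
Log2 fold change in FBN-ARO-KO+GCI against FLOX+GCI, with standard errors, of the 21 other plasminogen and coagulation genes, 10 other matrix metalloproteinases and 17 ADAM, ADAMTS and regulator genes that passed the filter. Filled points had an unadjusted p under 0.05, and Serpinf2, at -1.98 and at -0.29 without FLOX+GCI replicate 2, lies farthest from 0.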

How the data were processed

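Libraries were prepared from hippocampal total RNA and sequenced as 50 nt single-end reads. Per the labels, the authors aligned reads to mm9 with TopHat2 2.0.8b and counted them per gene with HTSeq (version, annotation and strand setting not given in the sources used here). The deposited values are raw counts, without normalization, for 22609 gene symbols. The 5 rows of reads not assigned to a gene, 43.4% to 45.5% of each file's total, were left out. Depth was 24333396 to 33076795 counts, so counting error is small except for Timp1, Plaur and Plau.

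The comparison of FBN-ARO-KO+GCI with FLOX+GCI used edgeR 4.0.16 (R 4.3.3): TMM scaling, filterByExpr with a minimum count of 10, the quasi-likelihood test, and p-values adjusted by Benjamini-Hochberg with 0.05 as threshold. The study used DESeq. Standard errors were taken from the fold change and its F statistic. With 2 libraries a group, an exact permutation test cannot go under a two-sided p of 1 in 3. Timp1, below the filter, was fitted with every gene of at least 1 count. Exon lengths, loci and GC content came from GENCODE M1 on NCBIM37 (mm9), in which 21430 symbols had a single locus. The procedure was also run on simulated counts. These had no trend over GC content, so that run does not show how the procedure performs on these data.

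Alternatives were DESeq2 1.42.0, the likelihood ratio test, DESeq-style (RLE) factors, library totals, other filters on low counts, splines over GC content and length (5 degrees of freedom), blocking on the replicate number, and leaving out each library. Protein sequences were not used here, and 1 gene of the lists is not reported here. The genes, lists and tests were chosen with earlier results of these data known. Named genes are the 9 genes, up to 4 genes of each list with the smallest unadjusted p, and the 5 genes of nearest pattern for a gene with a range over 4-fold, with markers of lists that differed over 2-fold between libraries.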

Additional observations from a re-analysis of the deposited data

How the results depend on the processing

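The number of genes called, 2 by edgeR's quasi-likelihood test, depended on the test. DESeq2 called 292, the likelihood ratio test 294 and a fit without a filter 5. It was 193 without FLOX+GCI replicate 1, 127 without FLOX+GCI replicate 2 and 0 without either FBN-ARO-KO+GCI library. The groups share replicate numbers that the labels tie to no common litter or day. Deviations of same-numbered libraries correlated at 0.129 over all genes, and with the replicate number as a block (replicate block) 184 genes were called. Of the other pathway genes, 0 were called in the main comparison and by the likelihood ratio test, 3 with the replicate block (Anxa2, Mrc2 and Vtn), from 0 to 3 with 1 library left out (3 without FLOX+GCI replicate 1, 1 without FLOX+GCI replicate 2), and 0 when GC content and length were corrected, with or without the block. The cause of these differences was not tested. The correction gave log2 fold changes of opposite sign for Mmp17 (0.0577, and 0.0575 with the block), Bsg (0.00691, and 0.00753 with the block) and Serpini1 (-0.00993, and -0.0107 with the block). Over all genes the log2 fold change followed GC content (Spearman's rho -0.55 across 13869 genes, which are not independent).

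The number of the 9 genes whose groups did not overlap was 4 under TMM, RLE and total scaling, 2 of the 8 genes corrected (Plaur and Timp4), where 42.7% of all tested genes did not overlap, and 6 or 7 with 1 library left out, where 69.0% to 78.9% did not. Without a library left out, the log2 fold change of Plat, Plau, Plaur, Timp1, Timp2, Timp3, Timp4 and Mmp14 kept its sign under every alternative run, and that of Serpine2 changed sign under 1. With 1 library left out it changed sign for Plat in 2 fits, and for Serpine2 and Timp3 in 1 fit each. Depth limits what can be said of Timp1 outside FLOX+GCI replicate 2, where it had 4 or 5 counts.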
